A study of Mus musculus with 6 samples.

Results

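The 10 genes described here encode the core of the MHC class I pathway and were taken by symbol from the 54532 genes in the deposited table. They comprise the heavy chains H2-K1 and H2-D1, the light chain B2m, the peptide transporter subunits Tap1 and Tap2, the loading factor Tapbp, the immunoproteasome subunits Psmb8, Psmb9 and Psmb10, and the transactivator Nlrc5, and all 10 were found. The data are 6 RNA-seq libraries of bone-marrow-derived macrophages (BMDMs) grown from wildtype C57BL/6 mice in medium conditioned by L929 cells. BMDMs received nothing (Untr), LPS at 100 ng/ml over 2 h (LPS), or metformin at 5 mM over 6 h followed by the same LPS dose and time (Met + LPS), with 2 libraries in each group. No group received metformin without LPS. The comparison of LPS with Untr asks how the early LPS response alters transcript levels, and that of Met + LPS with LPS asks how metformin pretreatment alters that response.

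MHC class I molecules carry peptides from proteins made inside the cell to its surface, where CD8 T cells read them. The proteasome cuts the peptides, and its inducible catalytic subunits Psmb8, Psmb9 and Psmb10 take the place of the constitutive Psmb5, Psmb6 and Psmb7 to form the immunoproteasome. TAP, the dimer of Tap1 and Tap2, pumps peptides into the endoplasmic reticulum, where tapasin (Tapbp) holds the heavy chain with B2m until a peptide is bound. Nlrc5 raises transcription of these genes through factors bound at their promoters. In macrophages the pathway is known as a target of interferons and of NF-kappaB.

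The promoters of the genes that carry these control elements are given first, because the factors known to bind them are among the regulators compared with these genes. RefSeq promoter entries on GRCm38.p6 were matched for 8 of the 10 genes (all but Tap2 and Nlrc5), and the 250 bases upstream of each start were searched on both strands for an IRF core (AANNGAAA), a kappaB element (GGGA and CC set 4 bases apart), a CCAAT box (CCAAT) and a CRE half-site (TGACG). H2-K1, H2-D1 and B2m held all 4, a combination found in 0.198% of the 32817 RefSeq promoters. The patterns were chosen with factors known to act on class I promoters in mind, so this share is a description and not a test. The promoters of H2-K1 (chr17:34000348-34000597, minus strand, 250 bases) and B2m (chr2:122147437-122147685, plus strand, 249 bases) are printed 5′ to 3′ up to the base before the annotated start, with the motif matches on either strand in capitals and overlapping kappaB matches joined.
H2-K1: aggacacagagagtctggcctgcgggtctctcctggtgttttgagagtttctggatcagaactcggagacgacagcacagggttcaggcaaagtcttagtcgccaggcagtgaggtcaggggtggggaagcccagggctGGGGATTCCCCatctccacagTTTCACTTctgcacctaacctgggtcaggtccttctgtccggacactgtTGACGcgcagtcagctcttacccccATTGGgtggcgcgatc
B2m: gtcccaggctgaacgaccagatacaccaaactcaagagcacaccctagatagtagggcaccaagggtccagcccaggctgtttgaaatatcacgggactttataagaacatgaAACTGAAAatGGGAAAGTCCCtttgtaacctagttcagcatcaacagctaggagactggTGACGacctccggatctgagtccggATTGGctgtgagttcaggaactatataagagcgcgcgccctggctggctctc

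In H2-K1 the kappaB element came first and the IRF core followed it, whereas in B2m the IRF core came first. The same stretch of H2-D1, which spans its kappaB and IRF matches, is printed with that of H2-K1 to show how alike the heavy chain promoters are (H2-K1 at chr17:34000430-34000459 on the minus strand, H2-D1 at chr17:35262922-35262951 on the plus strand). The stretches were identical at 29 of 30 bases.
H2-K1 enhancer: tGGGGATTCCCCatctccacagTTTCACTT
H2-D1 enhancer: tGGGGATTCCCCatctcctcagTTTCACTT

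Among the 8 windows, 3 held an IRF core, 3 a kappaB element, 6 a CCAAT box and 5 a CRE half-site. The shares over the 32817 RefSeq promoters were 21.3%, 17.6%, 33.8% and 17.7% in the same order. Tap1 and Psmb9 are transcribed away from each other from RefSeq starts 226 bases apart. Their promoter windows therefore shared 225 bases and a CRE half-site. In GENCODE the genes overlap, as Psmb9 starts at 34187764 on the minus strand and Tap1 at 34187553, and the site lies inside Psmb9. That site is printed because it lies upstream of both RefSeq starts (chr17:34187457-34187486, plus strand, the strand of Tap1, with the match in capitals).
Tap1 CRE: gcccagagacaggTGACGacagagggtcct

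Psmb8 and Psmb10 held none of the 4 letter patterns in this window. The windows of H2-D1, Tap1, Tapbp, Psmb8 and Psmb9 lie wholly within exons of the GENCODE annotation, as do the stretches of H2-D1 and Tap1 printed here. Those of Tapbp (chr17:33919228-33919477) and Psmb8 (chr17:34197945-34198194) lie downstream of the GENCODE gene starts at 33915899 and 34197721. The same holds for H2-D1 (chr17:35262844-35263093, GENCODE start 35262730) and for Psmb9 (chr17:34187331-34187580, minus strand, GENCODE start 34187764). Sequence before those starts was not searched for any of these genes. A match is only a run of letters, and binding was not measured in these libraries.

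Transcript levels are given as the deposited TPM, a unit that divides counts by gene length and scales every library to the same total, so that levels can be compared between genes. Log2 fold changes are on the log2(TPM + 1) scale with the standard error (SE) of limma, which was fitted to the 12755 genes at 1 TPM or more in at least 2 libraries, and a gene passed at an adjusted p under 0.01. Reads on genes recovered from the TPM values ranged from 25457016 to 30762754 per library, and each of the 10 genes had at least 728 reads in every library. The median log2 fold change of all tested genes was -0.48 in LPS vs Untr, -0.48 in Met + LPS vs Untr and -0.03 in Met + LPS vs LPS. After rescaling every library so that its median gene matched the others (median-ratio rescaling), these medians were -0.01, 0.00 and -0.02, and the share of passing genes that were higher in LPS than in Untr went from 21.3% to 52.6%. All 8 macrophage markers were detected, and those of B cells, T and NK cells, erythroid cells and fibroblasts were under 1 TPM in every library. The summed TPM of 5 neutrophil markers was 20.3 to 21.4 in Untr, 9.53 to 14.96 in LPS and 21.2 to 22.03 in Met + LPS, and that of 5 dendritic cell markers was 0.703 to 1.12, 2.29 to 2.40 and 2.19 to 2.80. Elane made up most of the neutrophil sum, with mean TPM of 16.3 in Untr, 8.64 in LPS and 15.6 in Met + LPS. Of the 5 neutrophil markers, 2 were under 1 TPM in every library. Among the 3 that were tested, only Elane passed as lower in LPS vs Untr, and none passed in Met + LPS vs LPS. The summed TPM of the macrophage markers was 44621 to 46599 in Untr, 37412 to 37903 in LPS and 30877 to 30948 in Met + LPS. Lyz2 made up most of that sum. It measured 33981 and 35844 TPM in Untr, 26974 and 26696 in LPS, and 21203 and 21381 in Met + LPS. In LPS vs Untr 2 of the 8 markers passed as higher and 5 as lower, against 16.2% and 60.1% of all tested genes. After median-ratio rescaling 5 passed as higher and 1 as lower there, when 30.6% of all tested genes passed as higher. In Met + LPS vs LPS 6 of these 8 markers passed as lower, against 18.0% of all tested genes, with a median log2 fold change of -0.34. The part of these markers in the results below was not tested. In bulk libraries, fewer cells of a type and less RNA per cell cannot be told apart.

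The class I molecule itself was among the most abundant transcripts of these BMDMs in every group. With the TPM as deposited LPS raised H2-K1 by 22.96%, and neither B2m nor H2-D1 passed the test between LPS and Untr. After median-ratio rescaling all 3 passed as higher, with log2 fold changes of 0.82 for H2-K1, 0.65 for B2m and 0.41 for H2-D1. No change of these 3 genes passed between Met + LPS and LPS. By mean TPM among the 12755 tested genes, B2m ranked 9 in Untr, 6 in LPS and 7 in Met + LPS, H2-D1 ranked 24, 31 and 30, and H2-K1 ranked 63, 67 and 70.

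H2-K1 (ENSMUSG00000061232, chr17:33996017-34000333, minus strand), a classical heavy chain that binds the peptide, measured 1574 and 1582 TPM in Untr, 1855 and 2025 in LPS, and 1713 and 1724 in Met + LPS. The LPS libraries were highest, the Met + LPS libraries lay between, and no libraries of different groups overlapped. The log2 fold change was 0.30 ± 0.04 in LPS vs Untr (limma adjusted p = 0.000745) and -0.17 ± 0.04 in Met + LPS vs LPS (limma adjusted p = 0.019), the latter not passing. Without either Untr library the first call missed the threshold (limma adjusted p = 0.0115 and 0.0107).

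H2-D1 (ENSMUSG00000073411, chr17:35262730-35267499, plus strand), the other classical heavy chain, measured 3893 and 4015 TPM in Untr, 3522 and 3764 in LPS, and 3415 and 3489 in Met + LPS. Its Untr libraries were the highest and its Met + LPS libraries the lowest, and it was the only gene of the 10 with its highest libraries in Untr. In LPS vs Untr the log2 fold change was -0.12 ± 0.04 (limma adjusted p = 0.0345), which did not pass, and it was 0.41 and passed after median-ratio rescaling. Between Met + LPS and Untr it was -0.20 ± 0.04 (limma adjusted p = 0.00427) with the TPM as deposited, and 0.35 after rescaling. H2-D1 thus lay below Untr in TPM but 0.36 above the median tested gene in LPS vs Untr and 0.28 above it in Met + LPS vs Untr. Leaving out any of the 4 libraries compared ended the Met + LPS vs Untr call (limma adjusted p = 0.0183 to 0.0456).

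B2m (ENSMUSG00000060802, chr2:122147686-122153083, plus strand), the light chain shared by all class I molecules, measured 10090 and 9403 TPM in Untr, 10242 and 10941 in LPS, and 10736 and 11106 in Met + LPS. The LPS libraries lay above the Untr libraries, while the LPS and Met + LPS libraries overlapped. Log2 fold changes were 0.12 ± 0.05 in LPS vs Untr (limma adjusted p = 0.068), 0.04 ± 0.05 in Met + LPS vs LPS (limma adjusted p = 0.518) and 0.16 ± 0.05 in Met + LPS vs Untr (limma adjusted p = 0.0225). The first and the last passed after median-ratio rescaling, at 0.65 and 0.71.

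The balance within the class I molecule can be read from ratios inside a library, which no scaling affects. These ratios were chosen after the values were seen and are given as a description. The H2-D1 to H2-K1 ratio was 2.51 ± 0.047 in Untr (SD, n = 2), 1.88 ± 0.028 in LPS and 2.01 ± 0.021 in Met + LPS, so that H2-D1 remained the more abundant heavy chain in all 6 libraries. B2m measured 1.76 ± 0.12 times the sum of both heavy chains in Untr (SD, n = 2), 1.897 ± 0.01 times in LPS and 2.11 ± 0.026 times in Met + LPS. The H2-K1 and H2-D1 transcripts share sequence, with 77.2% and 73.1% of their 31-base words found in no other gene, so the split of reads between them depends on how the authors' counting treated shared reads.

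**Figure D1:**
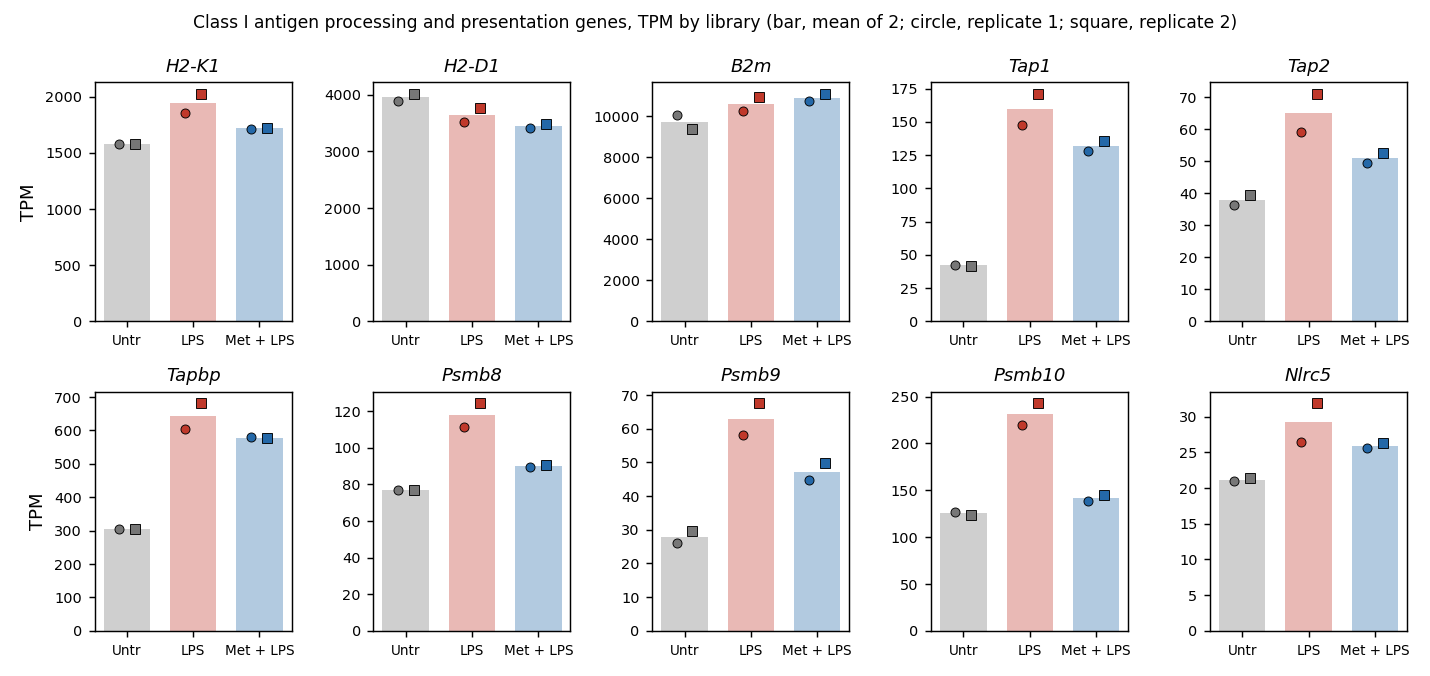
TPM (linear axes from 0, a separate axis for each gene) of the 10 genes in Untr, LPS and Met + LPS; bars are means of 2 libraries, circles replicate 1 and squares replicate 2. The replicate 2 square lies above the circle in LPS for 10 of 10 genes, H2-D1 is highest in Untr, and Psmb10 in Met + LPS (139 and 145 TPM) lies near Untr (127 and 124 TPM).

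Tap1 showed the steepest increase of the 10 genes in LPS, and its partners rose less. Tap1 rose 3.79-fold, Tapbp 2.10-fold and Tap2 1.72-fold in mean TPM. All 3 were still higher in Met + LPS than in Untr, and none passed the test between Met + LPS and LPS.

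Tap1 (ENSMUSG00000037321, chr17:34187553-34197225, plus strand), a transporter subunit, measured 42.7 and 41.6 TPM in Untr, 148 and 171 in LPS, and 128 and 136 in Met + LPS. The Untr libraries stood well below the other 4, and the Met + LPS libraries lay just under the LPS libraries without overlap. Its log2 fold change in LPS vs Untr was 1.89 ± 0.07 (limma adjusted p = 1.12e-06), the highest of the 10 genes under every setting tried. Met + LPS differed from LPS by -0.27 ± 0.07 (limma adjusted p = 0.0208) and from Untr by 1.63 ± 0.07 (limma adjusted p = 2.2e-06).

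Tap2 (ENSMUSG00000024339, chr17:34203527-34216321, plus strand), its partner in the dimer, measured 36.4 and 39.3 TPM in Untr, 59.1 and 71.0 in LPS, and 49.6 and 52.6 in Met + LPS. The groups kept the same order as for Tap1, without overlap. The log2 fold change was 0.76 ± 0.09 in LPS vs Untr (limma adjusted p = 0.000206), -0.34 ± 0.09 in Met + LPS vs LPS (limma adjusted p = 0.0205) and 0.42 ± 0.09 in Met + LPS vs Untr (limma adjusted p = 0.00384). The last call missed the threshold when any of the 4 libraries compared was left out (limma adjusted p = 0.0155 to 0.0412).

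The subunits of the dimer rose by different amounts. The Tap1 to Tap2 ratio, again a description chosen after the values were seen, was 1.12 ± 0.082 in Untr (SD, n = 2), 2.46 ± 0.065 in LPS and 2.59 ± 0.0033 in Met + LPS. Part of Tap2 lies under antisense genes (18.5% of its exon bases overlap other genes), and Tap1 overlaps Psmb9 on the opposite strand by 212 exon bases. Whether the counting used strand is not given in the sources used here.

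Tapbp (ENSMUSG00000024308, chr17:33915899-33929292, plus strand), which encodes tapasin, measured 305 and 306 TPM in Untr, 603 and 682 in LPS, and 580 and 577 in Met + LPS. Untr was lowest, and the Met + LPS libraries lay just below both LPS libraries. The log2 fold change was 1.07 ± 0.06 in LPS vs Untr (limma adjusted p = 4.98e-06), -0.15 ± 0.06 in Met + LPS vs LPS (limma adjusted p = 0.0706) and 0.92 ± 0.06 in Met + LPS vs Untr (limma adjusted p = 9.35e-06). Other genes cover 29.02% of its exon bases, mostly the antisense Gm19412.

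The 3 immunoproteasome subunits all rose with LPS, by 53.4% for Psmb8, 84.2% for Psmb10 and 124.8% for Psmb9 in mean TPM. They also held the only members that passed between Met + LPS and LPS. Psmb10 fell by 38.7% and Psmb8 by 23.6% in mean TPM, and the Psmb9 difference of -24.7% did not pass.

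Psmb10 (ENSMUSG00000031897, chr8:105935735-105938444, minus strand), the inducible counterpart of Psmb7, measured 127 and 124 TPM in Untr, 219 and 243 in LPS, and 139 and 145 in Met + LPS. In TPM its Met + LPS libraries were closer to Untr than to LPS, with no overlap between any groups. The log2 fold change was 0.87 ± 0.05 in LPS vs Untr (limma adjusted p = 1.07e-05) and -0.70 ± 0.05 in Met + LPS vs LPS (limma adjusted p = 0.000144), the largest difference of the 10 genes in the latter. In Met + LPS vs Untr it was 0.17 ± 0.05 (limma adjusted p = 0.0218) with the TPM as deposited, and 0.71 (limma adjusted p = 4.69e-05) after median-ratio rescaling, so that the closeness to Untr depends on the scaling.

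Psmb8 (ENSMUSG00000024338, chr17:34197721-34201454, plus strand), the counterpart of Psmb5, measured 76.8 and 77.0 TPM in Untr, 111 and 124 in LPS, and 89.6 and 90.6 in Met + LPS. The Met + LPS libraries lay between the other groups. Its log2 fold change was 0.61 ± 0.05 in LPS vs Untr (limma adjusted p = 5.42e-05), -0.38 ± 0.05 in Met + LPS vs LPS (limma adjusted p = 0.00165) and 0.23 ± 0.05 in Met + LPS vs Untr (limma adjusted p = 0.00694). The Met + LPS vs LPS call missed the threshold without either Untr library or either Met + LPS library (limma adjusted p = 0.0104 to 0.0143). That of Met + LPS vs Untr missed it without any of the 4 libraries compared (limma adjusted p = 0.0301 to 0.0457).

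Psmb9 (ENSMUSG00000096727, chr17:34181988-34187764, minus strand), the counterpart of Psmb6, measured 26.2 and 29.7 TPM in Untr, 58.0 and 67.6 in LPS, and 44.8 and 49.8 in Met + LPS. The order of the groups was that of Psmb8, and the replicates lay further apart relative to their level. Its log2 fold change was 1.14 ± 0.10 in LPS vs Untr (limma adjusted p = 3.99e-05), -0.40 ± 0.10 in Met + LPS vs LPS (limma adjusted p = 0.0138) and 0.74 ± 0.10 in Met + LPS vs Untr (limma adjusted p = 0.000336).

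Each inducible subunit can be set against the constitutive subunit whose place it takes, within a library. The Psmb8 to Psmb5 ratio was 0.531 ± 0.019 in Untr (SD, n = 2), 0.985 ± 0.017 in LPS and 0.735 ± 0.0098 in Met + LPS. The Psmb9 to Psmb6 ratio was 0.0945 ± 0.007, 0.188 ± 0.019 and 0.129 ± 0.011, and the Psmb10 to Psmb7 ratio was 2.56 ± 0.061, 4.38 ± 0.39 and 2.84 ± 0.11, in the same order. All 3 ratios were highest in LPS, lowest in Untr and intermediate in Met + LPS, with no overlap between libraries of different groups. From Untr to LPS the ratios went up 1.86-fold, 1.99-fold and 1.71-fold, and from LPS to Met + LPS they changed to 0.746, 0.688 and 0.651 of their LPS value. With 2 libraries against 2, the exact permutation test (two-sided) gave p = 0.333 for each, which is the smallest p that this design allows. In LPS vs Untr the constitutive Psmb5 passed as lower (-0.28, limma adjusted p = 0.00221) and Psmb6 as higher (0.18, limma adjusted p = 0.00129). Both sides of those ratios thus moved, and 16.2% of all tested genes passed as higher and 60.1% as lower. Psmb7 did not pass (0.10, limma adjusted p = 0.0325). After median-ratio rescaling all 3 passed as higher, as did 30.6% of all tested genes. Among the constitutive subunits, none of the 3 passed between Met + LPS and LPS (limma adjusted p = 0.0117 for Psmb6, 0.11 for Psmb7 and 0.599 for Psmb5), where the log2 fold changes were 0.13, -0.08 and 0.04. Psmb6, the only subunit of the 3 with an unadjusted p under 0.05, passed as higher there after median-ratio rescaling, and 1 passed as higher by voom. Over all tested genes 14.5% passed as higher and 18.0% as lower there by limma.

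**Figure D2:**
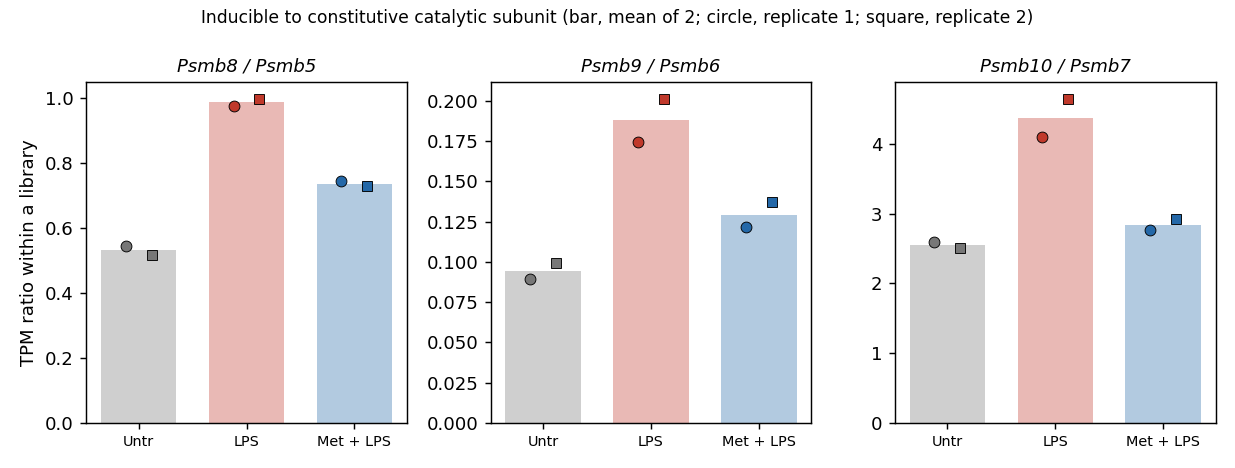
Ratio of the TPM of each inducible catalytic proteasome subunit to that of its constitutive counterpart (linear axes from 0) in Untr, LPS and Met + LPS; bars are means of 2 libraries, circles replicate 1 and squares replicate 2. In each panel LPS is highest and Met + LPS lies between LPS and Untr, nearest to Untr for Psmb10 to Psmb7 (2.84 in Met + LPS and 2.56 in Untr).

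Nlrc5 (ENSMUSG00000074151, chr8:94434356-94527272, plus strand), the transactivator of class I genes, was the least abundant of the 10 genes and rose by 37.8% in LPS. It measured 21.0 and 21.4 TPM in Untr, 26.5 and 31.9 in LPS, and 25.6 and 26.3 in Met + LPS. The Untr libraries were lowest, and the lower LPS library lay just above the higher Met + LPS library. Its log2 fold change was 0.44 ± 0.08 in LPS vs Untr (limma adjusted p = 0.00236), -0.16 ± 0.08 in Met + LPS vs LPS (limma adjusted p = 0.161) and 0.28 ± 0.08 in Met + LPS vs Untr (limma adjusted p = 0.0188). The LPS vs Untr call missed the threshold without either Untr library (limma adjusted p = 0.0208 and 0.0254) and without the filter on low values (limma adjusted p = 0.0118).

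The tested genes whose pattern was most like that of Nlrc5 were found by the root mean square difference, over the 6 libraries, of log2(TPM + 1) centred on each gene's mean. They were Aste1 and Setd1b (0.05 each), Ccnc (0.06), Dtwd1 (0.06) and Atxn7l1 (0.06). Setd1b, a histone methyltransferase subunit, measured 22.4 and 23.1 TPM in Untr, 30.6 and 33.1 in LPS, and 28.7 and 28.97 in Met + LPS. None of the other 9 class I pathway genes was among these 5. The measure compares the size of the changes as well as their shape, so a gene of the same shape with larger changes ranks low.

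In mean TPM the 10 genes were ordered B2m, H2-D1, H2-K1, Tapbp, Psmb10, Psmb8, Tap1, Tap2, Psmb9 and Nlrc5 in Untr. Tap1 moved above Psmb8 in LPS and in Met + LPS, and the order was otherwise the same. The only neighbours whose libraries overlapped were Tap2 and Psmb9, at 59.1 to 71.0 and 58.0 to 67.6 TPM in LPS and at 49.6 to 52.6 and 44.8 to 49.8 TPM in Met + LPS.

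Of the 10 genes, 8 passed as higher and 0 as lower in LPS vs Untr by limma, against 16.2% of all tested genes passing as higher and 60.1% as lower. The exceptions were H2-D1, the only gene lower at an unadjusted p under 0.05, and B2m, which passed as higher by voom on the recovered reads, where 0 genes passed as lower. Both passed as higher after median-ratio rescaling, when 10 of 10 genes and 30.6% of all tested genes did. Relative to the median tested gene, the log2 fold changes ran from 0.36 for H2-D1 to 2.37 for Tap1. Libraries did not overlap for 9 genes in the higher direction, as for 20.1% of all tested genes, and for 1 gene, H2-D1, in the lower direction, as for 71.5%.

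Between Met + LPS and LPS, 0 of the 10 genes passed as higher and 2 as lower, against 14.5% and 18.0% of all tested genes, so the share of 2 in 10 was near the background. The same counts held after median-ratio rescaling, where 17.4% of all tested genes passed as lower. At an unadjusted p under 0.05 in limma 0 were higher and 7 lower, beside 29.98% of all tested genes that were lower at that p, and voom on the recovered reads gave 0 higher and 7 lower, with 22.9% of all genes it tested lower. The median of the 10 log2 fold changes was -0.22, with -0.03 over all tested genes. For 9 of the 10 genes both Met + LPS libraries lay below both LPS libraries, as for 40.0% of all tested genes. The number that passed depended on the LPS libraries: it was 6 without LPS replicate 1 and 2 without LPS replicate 2, and it was 1 without either Untr or either Met + LPS library. LPS replicate 2 exceeded LPS replicate 1 in all 10 genes, by a median of 0.17 and a range of 0.10 to 0.26 on the log2(TPM + 1) scale, whereas 46.9% of all tested genes were higher in that replicate. In Met + LPS replicate 2 was the higher for 9 of the 10 genes (46.2% of all tested genes) by a median of 0.04, and in Untr for 7 (51.8%) by a median of 0.01.

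In Met + LPS vs Untr, which shares its libraries with the other comparisons, 5 genes passed as higher (Tap1, Tap2, Tapbp, Psmb8 and Psmb9) and 1, H2-D1, as lower, against 16.3% and 58.8% of all tested genes. Without either Untr library or either Met + LPS library 3 of the 10 passed. After median-ratio rescaling all 10 passed as higher, H2-D1 included, as did 33.4% of all tested genes. Libraries did not overlap for 9 genes that were higher, as for 21.7% of all tested genes, and for H2-D1, which was lower, as for 69.1%. The fold cut-offs were log2 fold changes of 2 against Untr and of 0.7 for Met + LPS vs LPS. With the TPM as deposited, none of the 10 genes went past them together with the p threshold. Over all tested genes 6.08%, 5.35% and 8.28% did in LPS vs Untr, Met + LPS vs Untr and Met + LPS vs LPS. The authors applied their cut-offs to fold changes from a test on counts, not to log2 TPM. That test, DESeq2, was not run here, so whether a gene met the cut-offs by it was not tested. Tap1 and Psmb10 stood at the edge. Tap1 was past the cut-off of 2 after median-ratio rescaling, at 2.41 in LPS vs Untr and 2.16 in Met + LPS vs Untr. Psmb10 was at -0.6997 in Met + LPS vs LPS and was past the cut-off of 0.7 with a pseudocount of 0.1 (-0.7032), with voom on the recovered reads (-0.7035), without LPS replicate 1 (-0.7736) and without Met + LPS replicate 2 (-0.7322).

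**Figure D3:**
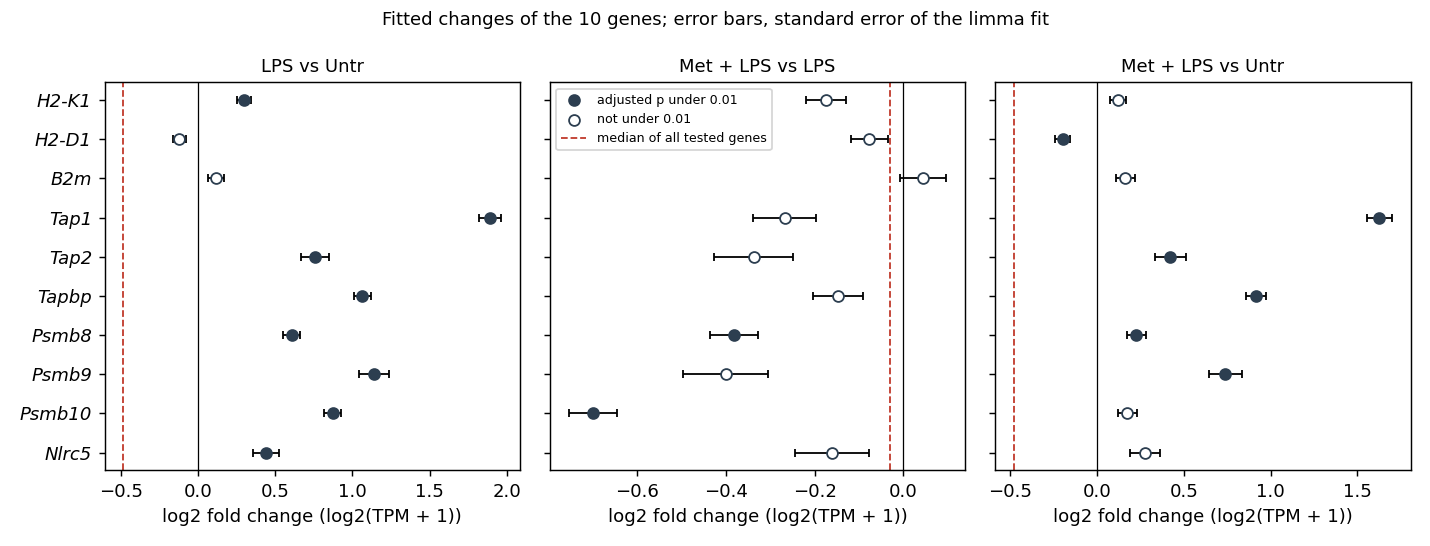
Log2 fold changes of the 10 genes on the log2(TPM + 1) scale in the 3 comparisons, with error bars of 1 SE of the limma fit; filled points passed at an adjusted p under 0.01, and the dashed line is the median of all tested genes. Tap1 is highest in LPS vs Untr (1.89), Psmb10 is lowest in Met + LPS vs LPS (-0.70), and H2-D1 is the only point below 0 in the comparisons with Untr, a direction that turns after median-ratio rescaling (0.41 and 0.35).

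The share of the LPS difference that was left in Met + LPS varied among the 8 genes that passed in LPS vs Untr. On the log2 scale it was 86.1% for Tapbp, 85.9% for Tap1, 64.9% for Psmb9, 63.3% for Nlrc5, 55.6% for Tap2, 41.5% for H2-K1, 37.2% for Psmb8 and 20.0% for Psmb10. After median-ratio rescaling, which raises both differences, it was 91.6%, 89.5%, 76.5%, 84.3%, 74.5%, 80.6%, 67.4% and 50.9% for the same genes. Psmb10 had the lowest share and Tapbp and Tap1 the highest under both scalings, while the order of the others moved. Only Psmb8 and Psmb10 had a Met + LPS vs LPS difference that passed, and differences in this share between genes were not tested. The same LPS libraries set the choice of genes and the LPS difference, so a high LPS library lowers the share. For Nlrc5 the log2 fold changes in LPS vs Untr and Met + LPS vs LPS were 0.31 and -0.03 without LPS replicate 2. They were 0.57 and -0.29 without LPS replicate 1. For Psmb10 they were 0.80 and -0.63, and 0.95 and -0.77, in the same order.

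The next steps of the pathway are chaperones, peptide trimming and the proteasome activator, a list of 10 genes that were all tested. In LPS vs Untr 4 passed as higher and 3 as lower, against 16.2% and 60.1% of all tested genes. The median log2 fold change was -0.08 against -0.48 over all tested genes. The proteasome activator subunits Psme2 (1.33) and Psme1 (0.52), which together form the interferon-inducible cap, and the tapasin-related Tapbpl (0.74) rose. The chaperone partners Pdia3 (-0.19) and Canx (-0.15) and the trimming peptidase Erap1 (-0.17) were lower in TPM. After median-ratio rescaling all 10 genes passed as higher, as did 30.6% of all tested genes.

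Calr and Pdia3 were the genes of this list that differed most between Met + LPS and LPS, while the chaperone Canx showed 0.02 ± 0.04 (limma adjusted p = 0.767) with overlapping libraries. Calr, the chaperone calreticulin, measured 1019 and 1063 TPM in Untr, 944 and 952 in LPS, and 580 and 602 in Met + LPS. Its Met + LPS libraries stood far below the other 4, with a log2 fold change of -0.68 ± 0.04 vs LPS (limma adjusted p = 3.26e-05). Pdia3, a disulfide isomerase of the loading complex, fell by 0.50 on the log2 scale and the proteasome assembly factor Pomp by 0.42, and 6 of the 10 genes passed as lower. Psme1 and Psme2 each fell by 0.34, and Tapbpl by 0.35. Both peptidases that trim peptides for presentation rose, Erap1 by 0.29 and Lnpep by 0.27. The median of the list was -0.34, and over all tested genes 18.0% passed as lower and 14.5% as higher.

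Nonclassical class I molecules, which present peptides, lipids or metabolites to more specialised receptors, held the largest LPS increases of the class I genes described here. Of 12 genes 11 were tested, H2-Q10 being under 1 TPM. In LPS vs Untr 7 passed as higher and 2 as lower, against 16.2% and 60.1% of all tested genes, with a median of 1.06. H2-M2 measured 0.678 and 1.35 TPM in Untr, 61.7 and 55.7 in LPS, and 67.8 and 72.4 in Met + LPS, from 8 and 15 reads in Untr. H2-Q7 went from 2.47 and 2.91 TPM in Untr to 26.2 and 29.7 in LPS and 24.04 and 27.7 in Met + LPS. The LPS libraries of both were far above Untr and close to Met + LPS. In LPS vs Untr the log2 fold change was 4.91 for H2-M2, 2.97 for H2-Q7 and 2.71 for H2-Q6. Mr1 (-0.81) and Cd1d1 (-0.67), which present vitamin B metabolites and lipids, were lower, the latter by 0.19 relative to the median tested gene.

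In Met + LPS vs LPS, 3 nonclassical genes passed as lower and 0 as higher by limma, with a median of -0.20. Over all tested genes 18.0% passed as lower and 14.5% as higher, so the share of 3 in 11 was near the background. At an unadjusted p under 0.05 there were 6 lower and 2 higher, and voom gave 5 and 1. Over all tested genes 29.98% and 22.9% were lower by those 2 rules. The 3 that passed by limma were H2-T24 (-0.61), H2-T22 (-0.38) and H2-Q4 (-0.29). Met + LPS vs Untr gave 7 higher and 2 lower, against 16.3% and 58.8% of all tested genes. Several of these genes are near-copies of each other, with 32.6% of 31-base words found in no other gene for H2-T22, 35.8% for H2-T10, 47.0% for H2-Q4, 48.2% for H2-Q6 and 60.8% for H2-Q7, so their individual values are uncertain, whereas H2-M2 (96.8%) and H2-T24 (93.4%) are largely distinct.

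**Figure D4:**
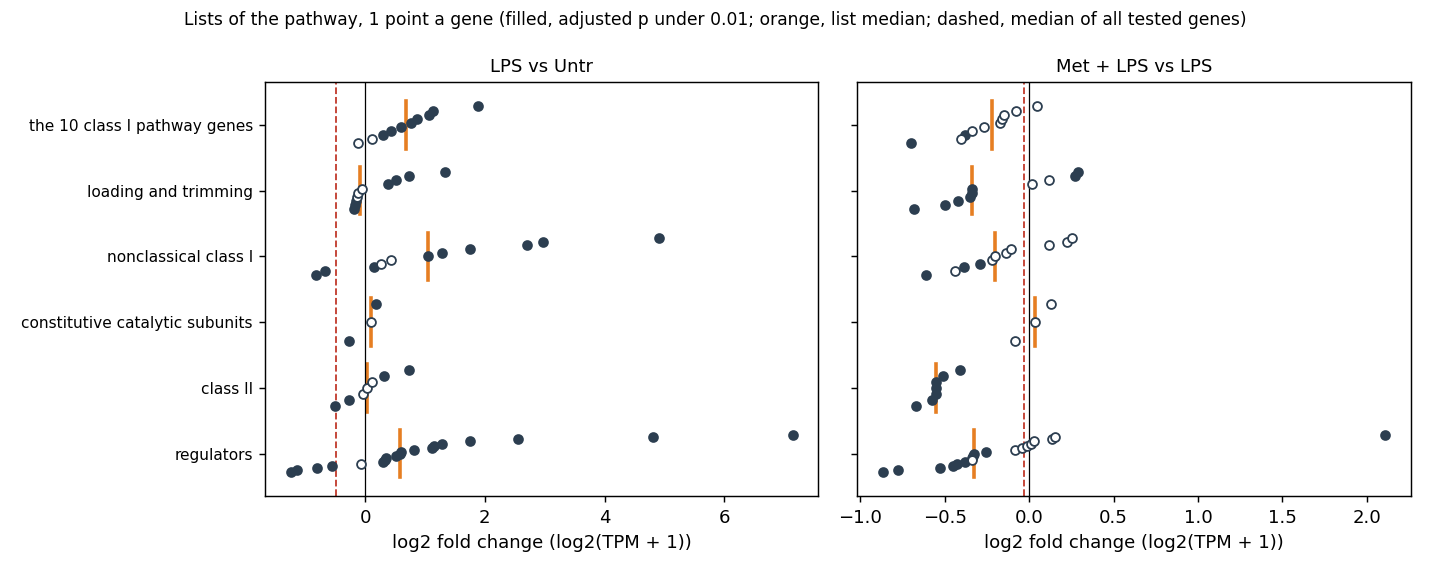
Log2 fold changes on the log2(TPM + 1) scale of the genes in 6 lists in LPS vs Untr and in Met + LPS vs LPS; each point is a gene, filled where it passed at an adjusted p under 0.01, orange bars are list medians and the dashed line is the median of all tested genes. The median of the 10 class I pathway genes is 0.68 and then -0.22. All 7 tested class II genes pass below 0 in Met + LPS vs LPS, where 18.0% of all tested genes do. The points of loading and trimming below 0 in LPS vs Untr turn positive after median-ratio rescaling.

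Among 19 regulators of class I transcription, 14 passed as higher and 4 as lower in LPS vs Untr, against 16.2% and 60.1% of all tested genes. The median of these regulators was 0.58. Irf1, an interferon regulatory factor that binds the IRF element, measured 38.2 and 35.95 TPM in Untr, 1054 and 1073 in LPS, and 898 and 882 in Met + LPS, a 28.7-fold increase with LPS in all libraries. Met + LPS remained far nearer to LPS than to Untr, at a log2 fold change of -0.26 ± 0.04 vs LPS (limma adjusted p = 0.00193). Nfkb1, a subunit of NF-kappaB, went up by 2.55 on the log2 scale.

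Ifnb1, the gene of interferon beta, measured 0.351 and 0 TPM in Untr (2 and 0 reads), 148 and 182 in LPS, and 738 and 686 in Met + LPS. Met + LPS was thus 4.32 times LPS in mean TPM, with a log2 fold change of 2.11 ± 0.15 (limma adjusted p = 0.00011), and Ifnb1 was the only regulator that passed as higher. As lower, 10 of the regulators passed there, led by Irf8 (-0.87), the CCAAT-binding subunit Nfyb (-0.78) and the interferon receptor chain Ifnar1 (-0.53), and 9 after median-ratio rescaling. Over all tested genes 14.5% passed as higher and 18.0% as lower, and 17.4% as lower after rescaling. The median of the list was -0.32.

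Nlrc5 acts with RFX and NF-Y factors, whose subunits were in the same list. Rfx5, the DNA-binding RFX subunit, measured 5.07 and 6.63 TPM in Untr, 8.70 and 8.67 in LPS, and 8.71 and 9.02 in Met + LPS. It rose with LPS, by 0.51 ± 0.11 (limma adjusted p = 0.00429), and did not pass between Met + LPS and LPS (0.03 ± 0.11, limma adjusted p = 0.866). Rfxap, Rfxank and Nfya fell by 1.24, 1.13 and 0.80 in LPS vs Untr, which placed them at -0.76, -0.65 and -0.32 relative to the median tested gene. The subunits of these complexes therefore differed in direction.

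MHC class II genes serve as a comparison, since their transactivator Ciita is related to Nlrc5. In LPS vs Untr 2 of the 7 tested passed as higher and 2 as lower, against 16.2% and 60.1% of all tested genes, with a median of 0.03. After median-ratio rescaling 6 passed as higher and 0 as lower (limma), with a median of 0.56, and 30.6% of all tested genes passed as higher. Between Met + LPS and LPS all 7 passed as lower by limma and by voom, with a median of -0.55 and a range of -0.67 to -0.41. Over all tested genes 18.0% passed as lower by limma and 22.9% by voom. The 10 class I pathway genes had a median of -0.22 and 2 that passed by limma. H2-DMa, which edits class II peptides, showed -0.67, the invariant chain Cd74 -0.57 and H2-Ab1, a class II beta chain, -0.55. Ciita measured 3.49 and 4.17 TPM in Untr, 6.42 and 7.59 in LPS, and 4.33 and 4.59 in Met + LPS. In TPM its Met + LPS libraries lay near Untr, at a log2 fold change of 0.18. After median-ratio rescaling Ciita was at 0.61 in Met + LPS vs Untr and 1.15 in LPS vs Untr, so that this closeness depends on the scaling. Whether the class I and class II lists differ was not tested.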

How the data were processed

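Poly-A RNA was sequenced as single-end reads. Per the submitters' processing notes and the paper, the authors used STAR 2.6.1d on the GRCm38 genome and featureCounts (Subread 1.6.3), and they deposited TPM for each library without pooling. How counts became TPM is not given in the sources used here. The paper states that the BMDMs were seeded in duplicate, and not whether replicates came from separate mice. The p-values therefore measure only the spread between these libraries, which may be technical. The file also lists a transcript length and no comparisons of the authors.

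Groups followed the sample labels. The main test was limma 3.58.1 in R 4.3.3 (lmFit, eBayes with trend) on log2(TPM + 1), with all 6 libraries, no covariate and Benjamini-Hochberg adjustment, as the unit does not allow a count test. The threshold of 0.01 and the fold cut-offs of 2 and 0.7 are the study's. Reads were recovered by multiplying TPM by exon length from a GENCODE annotation of GRCm38, which gave whole multiples (within 0.02) for 96.1% to 96.3% of values above 0. The annotation matched 54495 of the 54532 genes. Genomic positions and overlaps come from it. Promoters are RefSeq, GRCm38.p6. Ratios were tested in Python 3.11.15 with scipy 1.17.1. The test was checked on simulated data in which a small set of genes changed, evenly up and down. That check did not cover a shift of the median gene such as the one seen with LPS.

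Genes named are the 10 members, Irf1, Ifnb1, Rfx5, up to 3 passing genes at either end of each list in each comparison, and the 5 genes most like Nlrc5. A gene that the rule also names is not reported here. Constitutive subunits, Ciita, Psme1 and Psme2 in Met + LPS vs LPS and the near-copies were named beside them after their values were seen. So were the markers Lyz2 and Elane. The members and lists were chosen with earlier results of these data known. Alternatives were another pseudocount (0.1), no filter, a 5 TPM filter, median-ratio rescaling, the compared groups only, a replicate block, eBayes without trend, voom on the recovered reads, an adjusted p under 0.05, the fold cut-offs and leaving out each library. Voom with rescaling was added after seeing the data.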

Additional observations from a re-analysis of the deposited data

How the results depend on the processing

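The number of the 10 genes that passed in LPS vs Untr (8) stayed within 1.5 times under the alternatives tried except the fold cut-off, which left 0. In Met + LPS vs LPS (2) it was 6 with a filter of 5 TPM, 1 with the compared groups only, 4 with the replicate block, 7 with voom on recovered reads, 6 with voom and rescaling, 6 at an adjusted p under 0.05 and 0 with the fold cut-off. Leaving out 1 library gave 1 to 6. In Met + LPS vs Untr (6) it was 3 without the filter and 3 without the eBayes trend, 10 after median-ratio rescaling, 10 with voom, 10 with voom and rescaling, 10 at an adjusted p under 0.05 and 0 with the fold cut-off, and 3 to 9 leaving out 1 library. Of the constitutive subunits in Met + LPS vs LPS, 1 passed after rescaling in place of 0.

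The directions that turned were H2-D1 in LPS vs Untr (0.41 after rescaling and 0.41 with voom and rescaling) and in Met + LPS vs Untr (0.35 and 0.35), and B2m in Met + LPS vs LPS (-0.0029 without LPS replicate 1 and at most 0.0924 without any other library). The rescaling divided the Untr libraries by 1.277 and 1.283 and the LPS and Met + LPS libraries by 0.8796 to 0.8911. It thus raised the log2 fold changes in the comparisons with Untr, that of H2-D1 included. The causes of the shift of the median gene and of the B2m turn were not tested. Over all tested genes, the differences between replicates 2 and 1 were not correlated between groups (r = -0.004, 0.028 and 0.006). That cannot show whether the libraries were paired, and the sources used here do not say. In Met + LPS vs LPS the replicate block moved the count of the 10 genes from 2 to 4, adding Tap2 and Psmb9 (limma adjusted p = 0.00492 and 0.000934). The block moved the count over all genes in that comparison from 4156 to 3956. That count was 2662 with the compared groups only, 2792 without the filter and 2561 to 2759 leaving out 1 library, where a lone library is assumed to vary like the others. Each of the 10 genes had 728 reads or more in every library, and the effect of depth on the calls was not tested.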
